A study of Mus musculus with 6 samples.

Results

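Hox genes encode homeodomain transcription factors that set position along the body axis, and the data analysed here give their RNA levels in primary cortical thymic epithelial cells (cTECs), the cells of the thymic cortex that support positive selection of T cells. Every gene whose mouse symbol is Hox followed by a cluster letter from a to d and a number was taken, which gave 39 of the 50600 gene identifiers measured, of which 38 are described. The mice were 8 to 10 weeks old. The 3 KO libraries were from the strain B6.B6CB-Psmb11tm1Smta with the genotype Psmb11-/-, and the 3 WT libraries carry the same strain name with Psmb11+/+. Psmb11 encodes β5t, a catalytic proteasome subunit of cTECs, and the series asks which genes differ between cells with and without it. Medullary epithelial cells and thymocyte subsets, which the series design also names, were not analysed here. It is not stated whether the libraries of a genotype came from separate mice or from pools, so every p-value measures the spread between these libraries, which may be technical.

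Mammals carry their Hox genes in 4 clusters, HoxA to HoxD. Within a cluster the genes are numbered by paralogue group from the 3′ end, and in the embryo low-numbered genes act toward the head and high-numbered genes toward the tail. The thymus forms from the third pharyngeal pouch, at an axial level patterned by low-numbered Hox genes. Mice without Hoxa3 lack a thymus. Polycomb complexes keep Hox genes silent outside their domain, Trithorax complexes keep them active, and many Hox proteins bind DNA together with PBX and MEIS cofactors.

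The libraries held 34265035 to 36713388 gene counts in KO and 34660349 to 39224292 in WT. Psmb11 itself was lower in KO by a log2 fold change of -7.56, with 1.33 CPM in KO, against 250.7 CPM in WT. Levels are CPM, counts per 1e+06 gene counts of a library, unless TPM is named. TPM also divides by transcript length and is used to compare genes with each other. All 13 cTEC markers of the list used had reads in every genotype, and their summed level was 7165 to 8321 CPM in KO, against 11006 to 11536 CPM in WT. The list and this sum include Psmb11.

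In the cTEC libraries, Hox RNA came mainly from the 3′ ends of the HoxA and HoxB clusters. Of the 38 genes, 9 reached a mean of 0.5 CPM over the 6 libraries, a level used here as a working line for activity. These were Hoxa2, Hoxa3, Hoxa4, Hoxa5 and Hoxa7 in HoxA, Hoxb2, Hoxb3 and Hoxb4 in HoxB, and Hoxc11 in HoxC. No HoxD gene reached it. The line fell in a gap: the lowest gene above it was Hoxc11 with a mean of 0.717 CPM, and the highest below it was Hoxa6 with 0.211 CPM.

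Promoter sequences are shown for both of the genes with the highest levels (Hoxa2 and Hoxa3), for Hoxb4, which was higher in KO, and for Hoxa9, the first gene of HoxA after the transcribed stretch. Each is the 250 bases before the RefSeq start on GRCm38.p6, read 5′ to 3′ on the gene's strand. The Hoxa3 window lies at the far 5′ end of its annotated span, and where Hoxa3 RNA starts in these libraries was not examined. A set of 3 motifs was searched on both strands, and capitals mark the matches: TGATTNAT, a composite site of PBX and HOX proteins, TGACAG, the core site of MEIS proteins, and AGGTCA, a nuclear receptor half-site.
Hoxa2, chr6:52164832-52165081, minus strand: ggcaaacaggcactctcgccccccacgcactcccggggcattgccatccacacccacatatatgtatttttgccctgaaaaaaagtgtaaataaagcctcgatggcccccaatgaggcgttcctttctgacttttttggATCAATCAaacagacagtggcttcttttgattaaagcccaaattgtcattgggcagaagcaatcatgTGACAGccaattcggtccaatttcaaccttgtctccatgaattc
Hoxa3, chr6:52213068-52213317, minus strand: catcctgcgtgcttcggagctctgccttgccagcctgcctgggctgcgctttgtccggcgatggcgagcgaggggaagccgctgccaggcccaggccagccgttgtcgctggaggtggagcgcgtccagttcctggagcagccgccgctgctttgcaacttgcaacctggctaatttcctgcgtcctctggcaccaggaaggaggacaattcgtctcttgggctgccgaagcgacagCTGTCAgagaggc
Hoxa9, chr6:52227371-52227620, minus strand: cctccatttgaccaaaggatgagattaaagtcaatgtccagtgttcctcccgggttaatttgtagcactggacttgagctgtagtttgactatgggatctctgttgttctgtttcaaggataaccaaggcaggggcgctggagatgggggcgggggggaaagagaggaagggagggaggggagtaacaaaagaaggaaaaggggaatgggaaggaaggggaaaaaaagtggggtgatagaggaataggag
Hoxb4, chr11:96318017-96318266, plus strand: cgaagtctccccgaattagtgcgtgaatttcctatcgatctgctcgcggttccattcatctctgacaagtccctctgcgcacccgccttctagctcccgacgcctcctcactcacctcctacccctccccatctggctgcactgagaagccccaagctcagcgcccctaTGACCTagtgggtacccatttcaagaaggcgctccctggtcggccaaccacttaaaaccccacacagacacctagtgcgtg

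The Hoxa2 window held the composite motif, starting 111 bases before the start, and the MEIS core at 44 bases, with no overlap between them. The Hoxa3 window held the MEIS core 13 bases before the start, and the Hoxb4 window held the half-site at 81 bases. The Hoxa9 window held none of the 3 motifs. Promoters were given for 22 of the 38 genes, 24 promoters in all. TGATTNAT was in 2 of the 24 (Hoxa2 and Hoxd11) and in 2.82% of 32851 mouse promoters of the same length. TGACAG was in 2 of the 24 and in 15.9% of all promoters, and AGGTCA was in 6 of the 24 and in 14.0% of all. The Hox windows held a median of 12.5 CpG dinucleotides, with 18 in that of Hoxa3 and 3 in that of Hoxa9, against a median of 6 over all promoters. These matches describe the letters of the windows and say nothing of binding.

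The HoxA genes described lie on chromosome 6 (GRCm38, 52162417 to 52260880, 10 genes, minus strand) and gave the largest share of Hox RNA. They summed to 56.1 ± 1.17 CPM in KO, against 53.3 ± 1.51 CPM in WT (mean ± SD of 3 libraries), which was 75.0% of the TPM of the 38 Hox genes in KO, against 81.1% in WT. Within HoxA, levels were high from Hoxa2 to Hoxa4, low from Hoxa5 to Hoxa7 and near 0 from Hoxa9 to Hoxa13. The last 4 genes together had 23 counts over the 6 libraries.

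The HoxB cluster (chromosome 11, 96194316 to 96368256, 10 genes, plus strand) summed to 18.7 ± 3.04 CPM in KO, against 13.7 ± 1.16 CPM in WT, or 21.8% of Hox TPM in KO, against 17.2% in WT. Hoxb1, at its 3′ end, had 3 counts in all, while Hoxb2, Hoxb3 and Hoxb4 next to it were active. Hoxb5 to Hoxb13 had 6 to 27 counts each over the 6 libraries.

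HoxC (chromosome 15, 102921103 to 103036852, 9 genes, plus strand) summed to 1.78 ± 0.0588 CPM in KO, against 0.677 ± 0.101 CPM in WT. Most of that came from Hoxc11, a gene of the hindlimb and caudal axis in the embryo, which stood alone among neighbours with 3 to 23 counts. HoxD (chromosome 2, 74668310 to 74765142, 9 genes, plus strand) summed to 0.466 ± 0.270 CPM in KO, against 0.237 ± 0.214 CPM in WT. Its highest gene by count, Hoxd8, had 18, 2 and 7 counts in KO libraries A, B and C, against 4, 2 and 12 in WT libraries A, B and C, so 1 library of each genotype held most of them.

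By position, the 11 genes described from paralogue groups 1 to 4 included 6 of the 9 active genes and gave 92.2% of Hox TPM in KO, against 95.1% in WT. They summed to 71.1 ± 1.94 CPM in KO, against 64.7 ± 0.639 CPM in WT. The 11 genes of groups 5 to 8 summed to 4.15 ± 0.443 CPM in KO, against 2.59 ± 0.569 CPM in WT. The 16 genes of groups 9 to 13 summed to 1.78 ± 0.129 CPM in KO, against 0.654 ± 0.216 CPM in WT. In each class the summed level of the lowest KO library was above that of the highest WT library. By cluster this order held for HoxA groups 5 to 8, and for HoxB groups 1 to 4 and 9 to 13, the last with 14 counts in all. It also held for HoxC groups 9 to 13, and the other classes overlapped. Of the overlapping ones, Hoxa2 to Hoxa4 had 52.0 to 53.7 CPM in KO, against 49.3 to 52.1 CPM in WT. Within the sum of groups 9 to 13, Hoxc11 alone had 1.08 CPM in KO, against 0.353 CPM in WT. Among single genes tested, KO lay above WT without overlap for 21.0%. No such share was computed for sums of genes, so nothing is read from these separations.

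**Figure D1:**
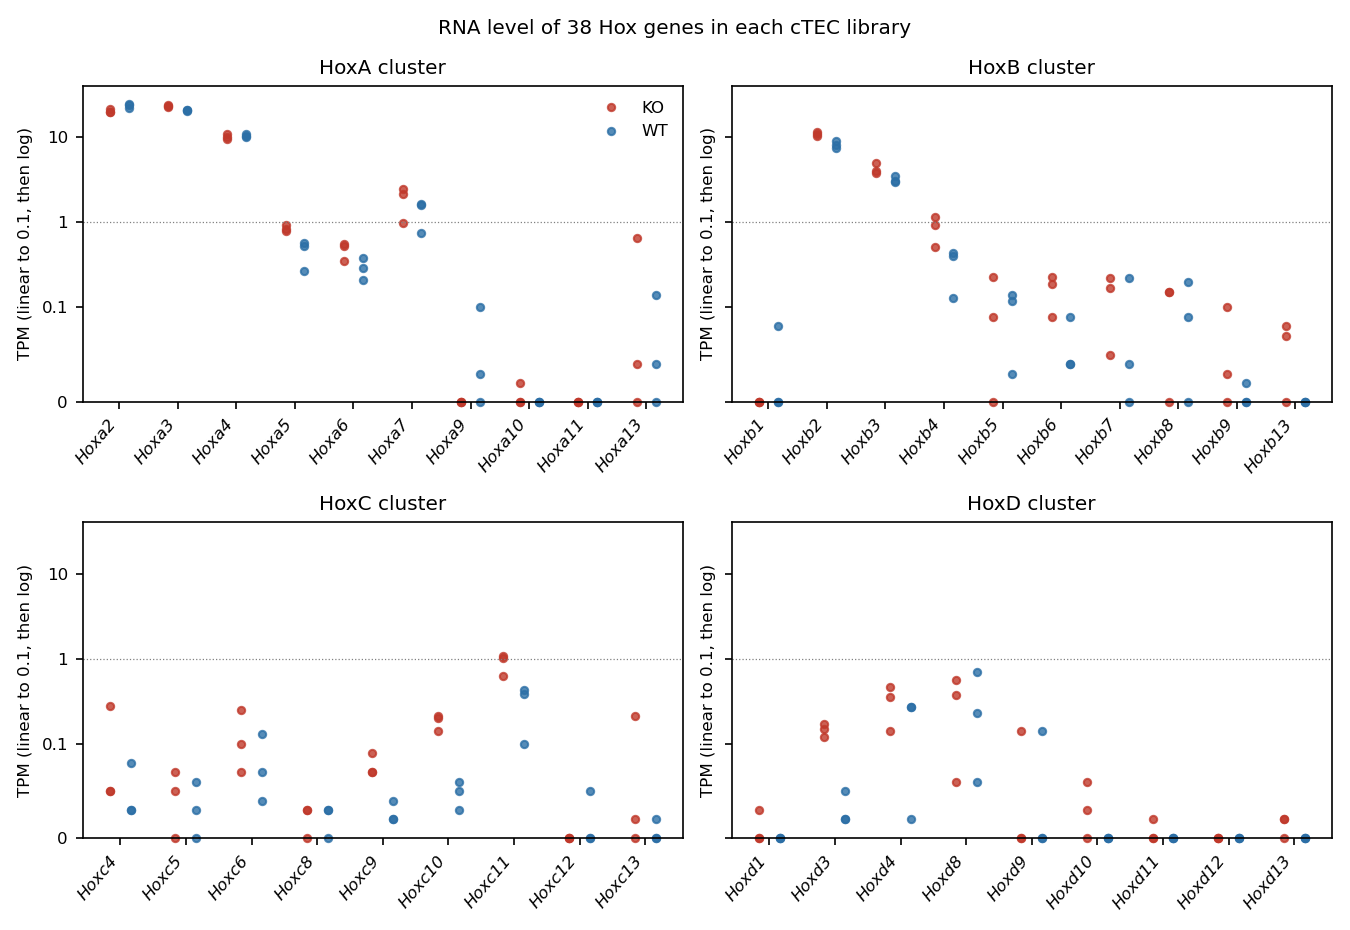
RNA level of each of the 38 Hox genes described in TPM (vertical axis, linear up to 0.1 and logarithmic above), 1 point per library, KO left and WT right of each gene name, with 1 panel per cluster and genes in order from the 3′ end; the dotted line marks 1 TPM. Levels are high from Hoxa2 to Hoxa4 and at Hoxb2 and Hoxb3, and the HoxC and HoxD panels stay near or below the line.

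By TPM, Hoxa3 and Hoxa2 stood at the top in both genotypes, with their order reversed between them. Hoxa3 had 23.3 ± 0.535 TPM in KO, against 20.7 ± 0.423 TPM in WT, and Hoxa2 had 20.4 ± 1.15 TPM in KO, against 23.4 ± 1.01 TPM in WT. The TPM values are from RSEM, which assigned Hoxa2 1.70 times the reads of the count column and Hoxa3 0.896 times. The closeness and the order of these 2 genes therefore rest on that assignment, and nothing is read from the reversal. Hoxb2 followed with 10.9 ± 0.540 TPM in KO, against 8.17 ± 0.735 TPM in WT, beside Hoxa4 with 10.2 ± 0.728 TPM in KO, against 10.4 ± 0.445 TPM in WT. The libraries of this pair overlapped in KO, while in WT every Hoxa4 value was above every Hoxb2 value. Hoxb3 had 4.26 ± 0.605 TPM in KO, against 3.14 ± 0.286 TPM in WT. Hoxa7 had 1.86 ± 0.775 TPM in KO, against 1.32 ± 0.503 TPM in WT, and it closed the group of 6 genes with a mean of at least 1 TPM over all libraries. Below it Hoxc11, Hoxb4 and Hoxa5 had 0.913 ± 0.248, 0.860 ± 0.321 and 0.857 ± 0.0666 TPM in KO, against 0.307 ± 0.180, 0.323 ± 0.169 and 0.457 ± 0.163 TPM in WT, and did not differ among themselves beyond their spread.

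The 9 active genes were also those of the 38 that had enough reads to be tested between genotypes, and the other 29 were not tested. Hoxb4 and Hoxc11 reached the level of that filter in all KO libraries but not in all WT libraries, so their place among the tested genes depends in part on the KO libraries. With the edgeR quasi-likelihood test and an adjusted p below 0.05 over all 16938 genes tested, Hoxa5, Hoxb2, Hoxb4 and Hoxc11 were higher in KO, and the other 5 were not called. Over all genes tested, 23.6% were called, 12.5% higher and 11.1% lower in KO. Since Hoxb4 and Hoxc11 are 2 of the 4 called, nothing is read from how the count of 4 of 9 stands to that share. In CPM, KO lay above WT without overlap for 6 of the 9, against 21.0% of all genes tested. The median log2 fold change of the 9 was 0.42, against -0.00 over all genes tested, and no test of the list was made. Hoxb4 and Hoxc11 are among these 6 and enter the median, so nothing is read from either value. Other settings changed the count of 4. With DESeq2 3 were called (20.5% of all genes it tested), with a mean of at least 1 CPM 2 (26.9%), with unstranded counts 3 (22.3%), and with limma 1 each on log2(TPM + 1) (7.28%) and log2(TPM + 0.1) (7.65%). Without KO library A, B or C, 5, 1 and 1 Hox genes were called, beside 21.3%, 19.5% and 20.0% of all genes, and without WT library A, B or C, 2, 3 and 1, beside 17.3%, 16.6% and 15.7%.

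Of the paralogue group 2 genes, which pattern the hindbrain and the second arch, Hoxb2 was higher in KO and Hoxa2 was not called. Hoxa2 (ENSMUSG00000014704.10, chromosome 6, 52162417 to 52164831), the selector gene of the second pharyngeal arch, had 11.0, 11.9 and 10.2 CPM in KO libraries A, B and C, against 12.2, 11.8 and 12.1 CPM in WT libraries A, B and C. The genotypes overlapped, and the log2 fold change of -0.14 (SE 0.09) was not called (edgeR adjusted p = 0.279). With RSEM expected counts Hoxa2 was called lower, at -0.23 (edgeR adjusted p = 0.0226; 22.4% of all genes were called with them). The annotation lists Gm28308 on the same strand over 15.0% of the exon bases of Hoxa2 and 8.01% of those of Hoxa3, and RSEM assigned Hoxa2 1.70 times the reads of the count column. Its level is therefore less certain than that of its neighbours.

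Hoxb2 (ENSMUSG00000075588.6, chromosome 11, 96350525 to 96354012), a hindbrain gene, had 9.42, 11.0 and 9.78 CPM in KO libraries A, B and C, against 7.01, 8.74 and 7.60 CPM in WT libraries A, B and C. Every KO library was above every WT library. It was 1.28-fold higher in KO, with a log2 fold change of 0.35 (SE 0.11, edgeR adjusted p = 0.0266). The call was lost without KO library B or C (edgeR adjusted p = 0.104 and 0.0524) or WT library A or C (0.116 and 0.0972).

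Hoxa3 (ENSMUSG00000079560.13, chromosome 6, 52169062 to 52213336) led the Hox genes in mean TPM over all libraries and had 33.8, 32.3 and 33.9 CPM in KO libraries A, B and C, against 31.0, 29.3 and 30.9 CPM in WT libraries A, B and C. RNA of this gene, which is needed for thymus formation in mice, was present in the adult cTEC libraries of both genotypes. Which cells of the libraries held it was not tested. The KO libraries lay above the WT libraries by a narrow margin, and the log2 fold change of 0.12 (SE 0.05) was not called (edgeR adjusted p = 0.117; 0.0875 to 0.498 over all alternatives run). The annotated gene spans Hoxa4, Hoxa5 and Hoxa6, which lie on the same strand.

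Its paralogue Hoxb3 (ENSMUSG00000048763.11, chromosome 11, 96323326 to 96347930) had 5.69, 8.61 and 6.30 CPM in KO libraries A, B and C, against 5.34, 5.09 and 4.87 CPM in WT libraries A, B and C. KO library B stood well above the rest. The log2 fold change of 0.42 (SE 0.15) was not called (edgeR adjusted p = 0.0526), but it was called in 5 of 17 alternatives, among them the fit without KO library A (edgeR adjusted p = 0.0131). Hoxd3, of the same group, had 1, 0 and 2 counts in KO libraries A, B and C, against 0 in each WT library. Its annotated span overlaps that of Hoxd4 on the same strand, so its counts are less certain. RSEM gave Hoxd3 0.17, 0.12 and 0.15 TPM in KO libraries A, B and C, against 0.05, 0.02 and 0.02 TPM in WT.

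Of the group 4 genes, which pattern the neck region, Hoxa4 (ENSMUSG00000000942.10, chromosome 6, 52189671 to 52191753) had 8.91, 7.85 and 8.20 CPM in KO libraries A, B and C, against 8.80, 8.21 and 9.02 CPM in WT libraries A, B and C. The genotypes overlapped, and the log2 fold change was -0.08 (SE 0.10, edgeR adjusted p = 0.639, not called). Hoxb4 (ENSMUSG00000038692.8, chromosome 11, 96318267 to 96321638), also known for its action in blood progenitors, had 0.708, 1.69 and 1.37 CPM in KO libraries A, B and C, against 0.260, 0.691 and 0.612 CPM in WT libraries A, B and C. Library A was the lowest of each genotype, and the lowest KO library was just above the highest WT library. Hoxb4 was 2.36-fold higher in KO, with a log2 fold change of 1.24 (SE 0.39, edgeR adjusted p = 0.0323). The call was lost without KO library B or C (edgeR adjusted p = 0.143 and 0.0935) or WT library A or C (0.111 and 0.0701), and with limma on TPM (adjusted p = 0.153 and 0.174 with pseudocounts of 1 and 0.1). Hoxc4 and Hoxd4 had 23 and 11 counts in all.

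Of the genes beyond group 4, Hoxa5 (ENSMUSG00000038253.6, chromosome 6, 52201754 to 52204587), which is needed for lung and neck development, had 0.844, 1.33 and 1.17 CPM in KO libraries A, B and C, against 0.692, 0.581 and 0.331 CPM in WT libraries A, B and C. These values rest on 31, 49 and 40 counts in KO and 24, 21 and 13 counts in WT. Hoxa5 was 2.07-fold higher in KO, with a log2 fold change of 1.05 (SE 0.34, edgeR adjusted p = 0.0322). The call was lost without KO library B or C (edgeR adjusted p = 0.119 and 0.0732) or WT library B or C (0.0739 and 0.141), with DESeq2 (adjusted p = 0.0633), with RSEM expected counts (edgeR adjusted p = 0.0902) and with limma on TPM (adjusted p = 0.148 and 0.190 with pseudocounts of 1 and 0.1).

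Hoxa7 (ENSMUSG00000038236.8, chromosome 6, 52214491 to 52221854), a gene of the trunk skeleton, had 2.23, 1.06 and 2.36 CPM in KO libraries A, B and C, against 1.64, 1.60 and 0.841 CPM in WT libraries A, B and C. The libraries of each genotype were split, with 1 low library in each. The log2 fold change of 0.46 (SE 0.33) was not called (edgeR adjusted p = 0.362).

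Hoxc11 (ENSMUSG00000001656.3, chromosome 15, 102954427 to 102957708) had 1.36, 1.06 and 0.817 CPM in KO libraries A, B and C, against 0.433, 0.498 and 0.127 CPM in WT libraries A, B and C, from 50, 39 and 28 counts in KO and 15, 18 and 5 counts in WT. It was 3.05-fold higher in KO, with a log2 fold change of 1.61 (SE 0.41, edgeR adjusted p = 0.00918), the largest change among the Hox genes tested. Its call held without each of the 6 libraries in turn (edgeR adjusted p = 0.0120 to 0.0412), and with limma on TPM it was not called (adjusted p = 0.0900 and 0.123 with pseudocounts of 1 and 0.1).

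**Figure D2:**
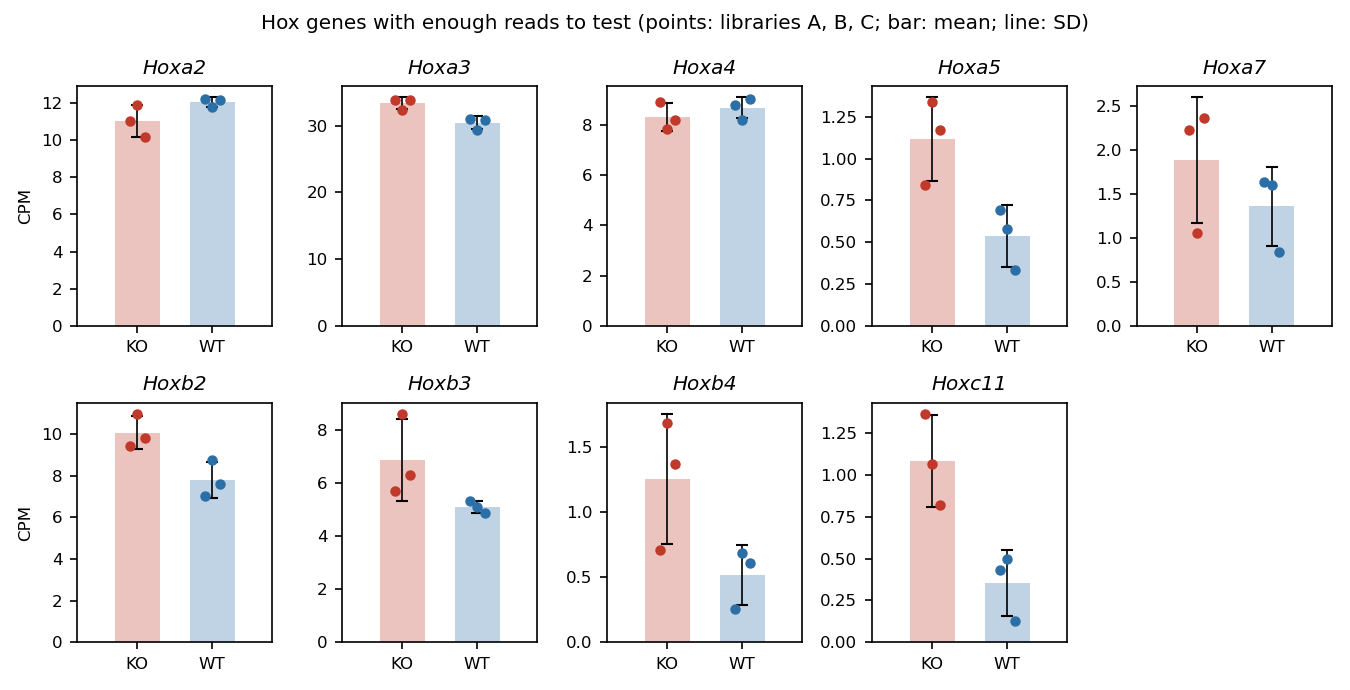
CPM (vertical axis, from 0) of the 9 Hox genes tested, KO left and WT right, with points for libraries A, B and C from left to right, bars for the mean and lines for the SD of 3 libraries. The KO points lie above the WT points for 6 genes, from 33.3 against 30.4 CPM on average at Hoxa3 to 1.08 against 0.353 CPM at Hoxc11.

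The 29 genes not tested had 0 to 46 counts over the 6 libraries. Hoxa11 and Hoxd12 had 0 in all libraries, which allows up to 0.0138 CPM over the 6 libraries together (3 counts, for counting error only). In 4 of the 29 every KO library was above every WT library, against 1.58% of all 33116 untested genes with at most 46 counts and 4.23% of the 12371 of these with any count. These genes were not matched for level within that range. The 4 were Hoxa6 with 13, 9 and 8 counts in KO and 4, 6 and 6 in WT, Hoxb6 with 3, 7 and 5 in KO and 1, 2 and 1 in WT, Hoxc9 with 4, 8 and 4 in KO and 2, 1 and 2 in WT, and Hoxc10 with 4, 5 and 4 in KO and 2, 1 and 2 in WT. The 4 were chosen after their values were seen, and counts this low allow no call. Other untested genes drew their reads from single libraries: Hoxc13 had 9 of 12 counts in KO library C, and Hoxd9 had 5 and 6 counts in library C of KO and WT and none elsewhere.

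Both strands of HoxA and HoxB were transcribed. Reads on the strand opposite to the annotated gene made up 19.7% of the reads over the 38 genes (19.8% in KO and 19.6% in WT), against 4.40% over all genes. Most came from Hoxb3, which had 2943 reads on the opposite strand and 1301 on its own. Without Hoxb3 the share was 6.07%. Hoxb3os, a long non-coding RNA, runs opposite to 52.9% of the exon bases of Hoxb3 and 27.3% of those of Hoxb2, and had 17.4 ± 2.76 CPM in KO, against 14.6 ± 0.987 CPM in WT, not called (log2 fold change 0.24, edgeR adjusted p = 0.106). In TPM it had 8.66 ± 1.34 in KO, against 7.17 ± 0.350 in WT, above Hoxb3 in both genotypes. With the authors' unstranded counts, Hoxb2 was not called (log2 fold change 0.42, SE 0.19, edgeR adjusted p = 0.120). Hoxb3 moved to an edgeR adjusted p of 0.522. How these counts treat reads that lie over genes on both strands was not examined.

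In HoxA, 17 annotated genes lie opposite to the Hox strand and 7 had enough reads to be tested. Of these, 2 were called, both lower in KO (11.1% of all genes were lower). They are Hotairm1, on the 3′ side of Hoxa2, and Hoxaas2, which lies opposite to Hoxa3. Hotairm1 had 110, 123 and 125 counts in KO libraries A, B and C, against 174, 147 and 175 counts in WT libraries A, B and C, with a log2 fold change of -0.45 (SE 0.15, edgeR adjusted p = 0.0360). In TPM Hotairm1 had 56.3 ± 5.20 in KO, against 75.4 ± 3.65 in WT, above every Hox gene described, but the annotation gives it transcripts as short as 253 bases, for which TPM depends strongly on the length used. Hoxaas2 had 438, 462 and 398 counts in KO and 562, 458 and 563 counts in WT, with a log2 fold change of -0.27 (SE 0.09, edgeR adjusted p = 0.0470). Hotairm1 was not called without KO library A or B or WT library A or C (edgeR adjusted p up to 0.160), and Hoxaas2 was called in 4 of 17 alternatives and in 1 of the 6 fits that left out a library. Summed over all 17 genes, opposite-strand RNA in HoxA was 21.9, 23.8 and 23.2 CPM in KO libraries A, B and C, against 31.5, 24.9 and 28.1 CPM in WT libraries A, B and C. The genotypes did not overlap, by a narrow margin. Hoxaas2 (12.0 CPM in KO, against 14.4 in WT) and Hotairm1 (3.33 against 4.52) are part of this sum, so it is not a separate result. Of single genes tested, 17.6% had KO below WT without overlap. Opposite-strand genes had 25 counts in HoxC and 8 in HoxD. Hotair of the HoxC cluster had all 25, and Hottip, at the 5′ end of HoxA, had 0. Of the 16 named non-coding RNAs of the clusters that the files hold, 4 were tested, 2 were lower by edgeR (Hotairm1 and Hoxaas2) and 0 were called by DESeq2, and 6 had 0 counts.

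**Figure D3:**
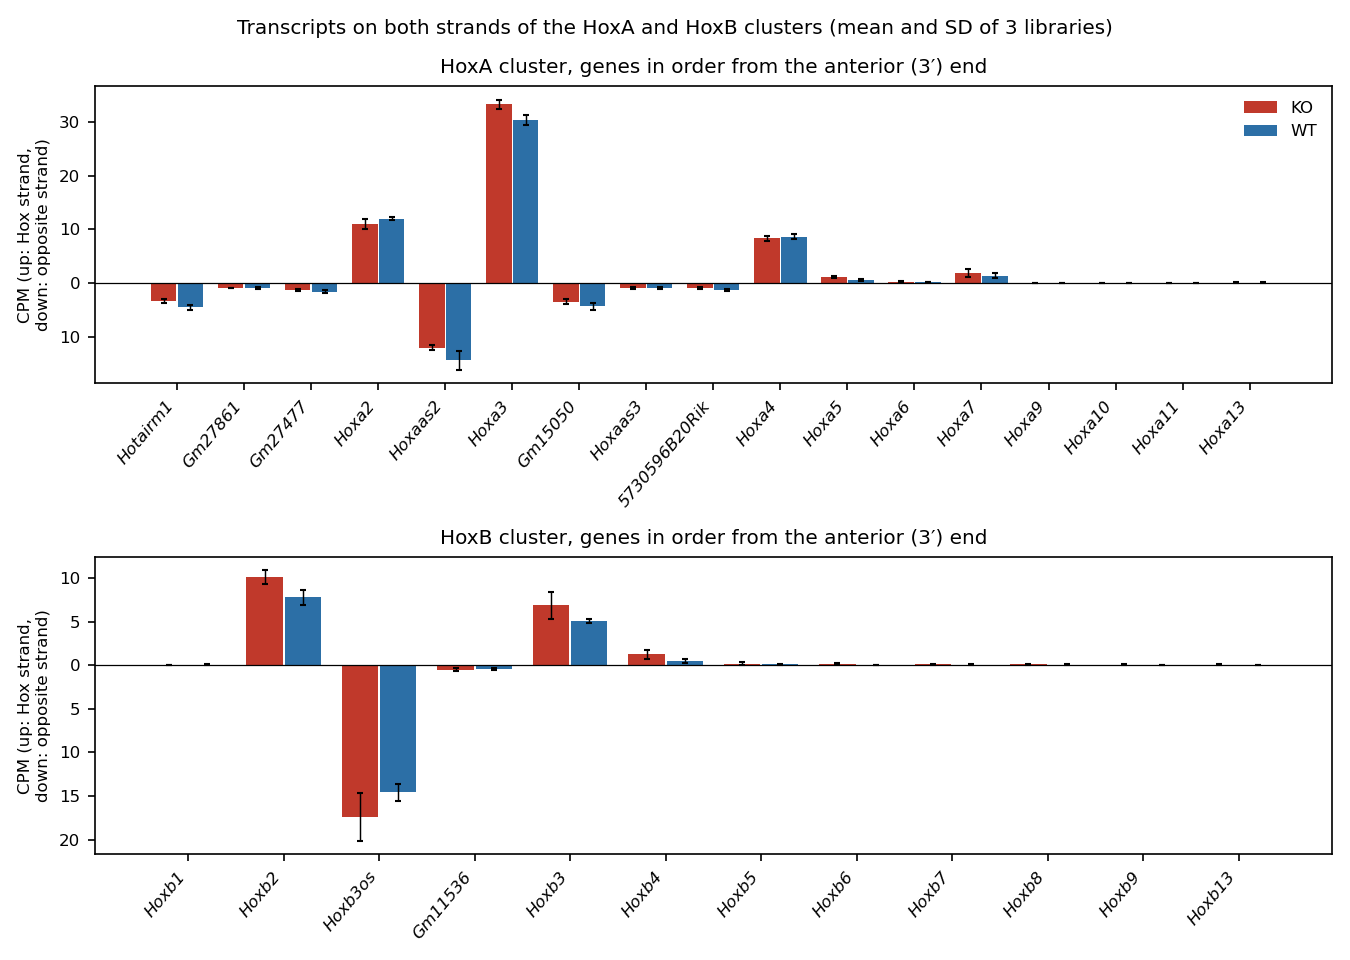
Mean CPM of genes on the Hox strand (upward bars) and on the opposite strand (downward bars, tested genes only) of the HoxA and HoxB clusters, in order from the 3′ end, KO left and WT right of each pair; lines are the SD of 3 libraries. Hoxaas2 and Hoxb3os reach 12.0 and 17.4 CPM in KO, against 14.4 and 14.6 CPM in WT, and both strands are near 0 beyond Hoxa7 and Hoxb4.

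Transcription outside the clusters was set beside them through the 2 nearest coding genes on each side. Evx1 and Evx2, homeobox genes that border HoxA and HoxD at their 5′ ends, had 0 counts in all libraries. Skap2, on the 3′ side of HoxA, had 66.7 ± 6.01 CPM in KO, against 82.2 ± 2.95 CPM in WT (log2 fold change -0.32, edgeR adjusted p = 0.000814). Hibadh, on the other side of HoxA, and Calcoco1 near HoxC were also lower in KO, with log2 fold changes of -0.17 and -0.37 (edgeR adjusted p = 0.00516 and 4.22e-05). The other 9 neighbours tested, including those of HoxB and HoxD, were not called. Of all genes tested, 11.1% were lower in KO and 23.6% were called in either direction. Around HoxC, where Hoxc11 was higher, Calcoco1 was the called neighbour, and Atp5g2, Smug1 and Cbx5 were not called. Atp5g2 was called in 6 of 17 alternatives.

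**Figure D4:**
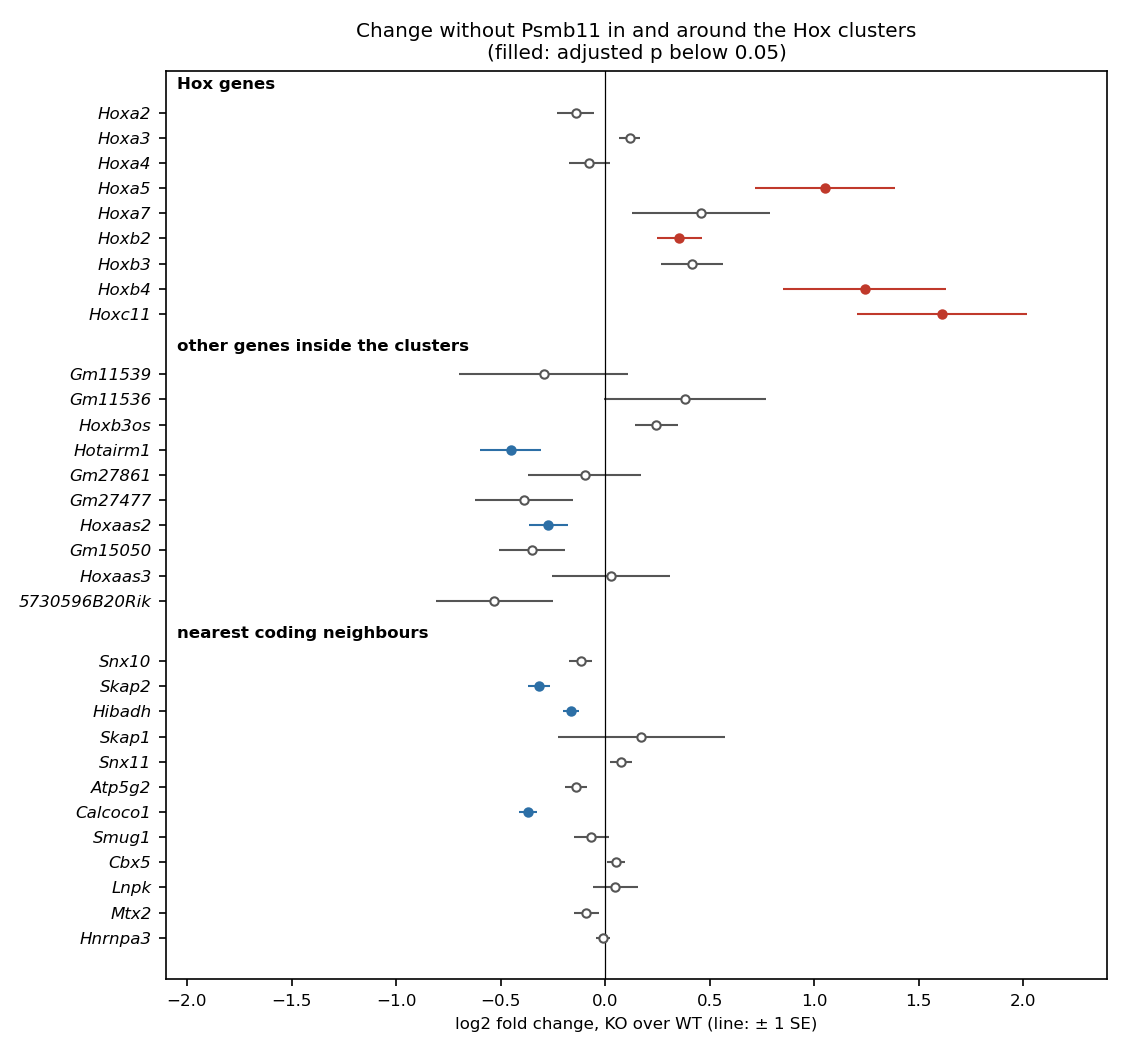
Log2 fold change of KO over WT (horizontal axis) with 1 SE on each side for the 9 Hox genes tested, other tested genes inside the clusters and the nearest coding neighbours; filled points passed an edgeR adjusted p below 0.05, red higher and blue lower in KO. Values run from -0.53 at 5730596B20Rik to 1.61 at Hoxc11, and the 4 filled points to the right are Hox genes.

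The partners of Hox proteins were transcribed in both genotypes, and 5 of 8 tested were not called. Of 9 PBC and MEIS cofactor genes 8 were tested, 1 was higher and 2 were lower in KO (12.5% and 11.1% of all genes; with limma 1 higher at either pseudocount), with a median log2 fold change of -0.04. Per length, Meis2 had 203.1 TPM in KO, against 204.9 TPM in WT, above the 23.3 and 20.7 TPM of Hoxa3. Meis2 had 325.3 ± 16.2 CPM in KO, against 332.6 ± 3.20 CPM in WT. Meis3 was higher in KO (log2 fold change 0.45, edgeR adjusted p = 0.00146), while Pbx3 and Meis1 were lower (-0.16 and -0.14; edgeR adjusted p = 0.0197 and 0.0211), calls lost without KO library C or WT library B or C.

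Among 11 genes that act upstream of Hox genes, 9 were tested, 4 were higher and 5 were not called (12.5% of all genes were higher), and with limma at either pseudocount 1 was higher. Egr2 (Krox20), which activates Hoxa2 and Hoxb2 in the hindbrain, had 21.8 ± 1.76 CPM in KO, against 12.1 ± 1.52 CPM in WT (log2 fold change 0.84, edgeR adjusted p = 1.62e-05). Gdf11, a ligand that acts on caudal Hox genes in the trunk, was higher (0.77, edgeR adjusted p = 0.00224). Rara and Cdx1 were the other genes called higher (0.18 and 0.92), Cdx1 not without KO library A or WT library B or C, and Cdx2 and Cdx4, activators of caudal Hox genes, had 1 and 0 counts.

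Of the chromatin regulators of Hox genes, Polycomb complex 2 had 1 higher and 1 lower of 11 tested (Ezh2 at 0.40 and Rbbp7 at -0.21 on the log2 scale), and 1 gene was called without WT library A or B or with limma. Polycomb complex 1 had 1 higher and 2 lower of 18 tested, with Phc3 at 0.13, Cbx8 at -0.20 and Cbx6 at -0.11. At most 1 of the calls in complex 1 was left without any 1 of the 6 libraries, and 0 with limma at either pseudocount. Trithorax genes and the demethylases of the Polycomb mark had 3 higher and 1 lower of 15 tested, led by Kdm6b at 0.27 (edgeR adjusted p = 0.000710), Ash2l at -0.15 and Kdm6a at 0.12, and 2 calls were left without KO library B or C or WT library A or C, and 1 with limma. These shares are close to the 23.6% of all genes called, and the median log2 fold change of each list lay between -0.01 and 0.01.

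Genes of the third pouch and the early thymus, which work in the same territory as Hoxa3, had 3 higher and 2 lower of 12 tested (12.5% and 11.1% of all genes). Of the 12, 2 were called with limma at either pseudocount or without KO library B, and 3 without KO library C or WT library A or C. Pax1 had 577.1 ± 9.30 CPM in KO, against 705.1 ± 28.5 CPM in WT (log2 fold change -0.30, edgeR adjusted p = 2.64e-05). Gata3 and Tbx1 were higher, at 0.61 and 1.22, Tbx1 not without KO library B or C or WT library C. Of 12 homeobox genes related to the Hox genes outside the named paralogues, 6 had 0 counts and 2 were tested, Meox1 and Meox2, neither of them called (edgeR adjusted p = 0.0975 and 0.297).

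The KO and WT libraries also differed in markers of cell types, whose part in the Hox levels and differences was not tested. For comparison, 12.5% of all genes tested were higher in KO and 11.1% were lower. Lists of markers gave summed levels of 6148 to 6549 CPM in KO, against 4770 to 5344 CPM in WT for medullary epithelium (7 of 11 tested higher), and of 193 to 259 CPM in KO, against 123 to 135 CPM in WT for thymic tuft cells (6 of 8 higher). With DESeq2 8 of the 11 medullary markers were higher and 1 was lower. Fibroblast and pericyte markers summed to 1434 to 1528 CPM in KO, against 960 to 1094 CPM in WT, with 9 of 13 tested higher. Within that list Col3a1 had 210.7 CPM in KO, against 103.5 CPM in WT, while Pdgfra (3.49 CPM in KO, against 3.35 CPM in WT) and Twist1 (1.60 CPM in KO, against 1.74 CPM in WT) were not called. Dendritic cell and macrophage markers summed to 64.4 to 72.3 CPM in KO, against 33.3 to 36.7 CPM in WT (6 of 7 higher). Of this list, 4 of 6 tested were higher with DESeq2, and 3 of 9 with limma at either pseudocount. The 5 mesothelial markers summed to 302.2 to 327.0 CPM in KO, against 204.3 to 219.9 CPM in WT, of which Msln and Krt19 were higher and Upk3b and Wt1 had 41 and 5 counts in all libraries together. Endothelial markers summed to 24.8 to 66.0 CPM in KO, against 20.4 to 49.0 CPM in WT. By edgeR and by DESeq2, 0 of the 9 endothelial and 0 of the 2 B cell markers tested were called, with 1 and 0 at an unadjusted edgeR p below 0.05. Thymocyte markers had 1 of 11 higher and parathyroid markers 1 of 3 higher. Of the cTEC markers 11 of 13 were lower and 1 was higher. The lower ones include Psmb11, the gene deleted in KO, whose call was set by the genotype. With the replicate letter as a block 8 were lower. No list had a marker at 0 in all libraries. In bulk RNA, fewer cells of a type and less RNA per cell cannot be told apart.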

How the data were processed

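Polyadenylated RNA of 6 cTEC libraries was sequenced with a stranded kit, per the labels' protocols. Tools were bcl2fastq 2.17, STAR 2.5.1b and RSEM 1.2.28, per the submitters' processing notes. The notes name GRCh38, a human build, while the identifiers are mouse Ensembl ones, so the alignment build is uncertain. Symbols and positions came from GENCODE M21 (GRCm38), which held 50376 of 50600 identifiers (99.56%).

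The authors deposited raw read counts per gene for each strand setting, and the column that held nearly all gene reads was used. Unassigned rows stayed out of library sizes: reads on no feature were 9.51% to 10.9% and ambiguous reads 1.23% to 1.28% of the total. The authors also deposited RSEM expected counts, which were rounded for an alternative, and TPM values, which served to compare genes.

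Counts were tested with edgeR 4.0.16 (R 4.3.3) after filterByExpr, with TMM factors of 0.994 to 1.01, robust moderation and no block, on all 6 libraries, with Benjamini-Hochberg adjustment over 16938 genes. SE was derived from the F statistic and is approximate. CPM uses gene count totals. Counts limit the low genes, and floors cover counting error only.

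The method was tested on simulated data. Alternatives were RLE and upper quartile scaling, DESeq2 1.42.0, testing without the count filter or above a mean of 1 CPM, expected counts, limma 3.58.1 on log2(TPM + 1) and log2(TPM + 0.1), unstranded counts, a replicate block and each library left out. The fit without robust moderation was added after seeing the data. The members and lists were chosen with earlier results of these data known. A few genes are not reported here: they were left out of the counts and sums over Hox genes and lists, and stayed in the fits. Library values are given for those with a mean of at least 0.5 CPM or called, other lists give up to 3 called genes by p or up to 2 by level, and others are named as examples. Promoters are RefSeq's. Figures used matplotlib 3.10.9 in Python 3.11.15.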

Additional observations from a re-analysis of the deposited data

How the results depend on the processing

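The 9 Hox genes at 0.5 CPM became 13 at 0.1 CPM and 6 at 1 CPM or 1 TPM, and stayed 9 under the other settings and without any 1 library. Which Hox genes pass the test is less settled. Beside the 4 called, 3 were called with DESeq2, 2 with a mean of at least 1 CPM (which leaves out Hoxa5, Hoxb4 and Hoxc11 as too low), 3 with unstranded counts, 4 with RSEM expected counts (Hoxa5 lost and Hoxa2 called lower), and 1 with limma on log2(TPM + 1) or on log2(TPM + 0.1). Between 1 and 5 were called when a library was left out. Over all genes, 1536 and 1615 were called with limma at the 2 pseudocounts and 2715 to 3661 without 1 library, against 3989. Of 150 gene values from the 9 tested genes under 17 alternatives, 123 kept their direction and side of the threshold, 21 lost the call, 6 gained it and 0 changed direction; the cause was not tested. Whether the replicate letters pair the libraries is not known. Deviations from the group means correlated at -0.016, 0.082 and -0.034 for the same letter, against -0.067 to 0.084 for different letters. Such deviations sum to 0 within a genotype, so these values cannot decide it. With the letter as a block 4097 genes and 5 Hox genes were called. Genes under about 0.274 CPM were too shallow to test.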
